A study of Apostichopus japonicus with 3 samples.

Results

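Transcripts of 4 trypsin-like serine proteases were followed through the yearly dormancy of the sea cucumber Apostichopus japonicus, out of 20712 isotigs found in the intestine. An isotig is a transcript sequence assembled without a reference genome. The members are the isotigs whose best protein match names a trypsin-like serine protease or an anionic trypsin, and all 4 were read in every library. The intestines came from animals not in aestivation, animals deep in aestivation and animals at arousal, with 1 sequencing library per stage. At least 15 individuals were used per stage, per the series' design text, and the sources used here do not say whether their RNA was pooled. No strain, age or treatment is named, so the stage is the only difference between the groups that the labels give.

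Trypsin cuts proteins after lysine and arginine. It is made as an inactive precursor, secreted into the gut lumen, and switched on there by removal of a short leading peptide. In vertebrates the cut is made by enteropeptidase, and active trypsin then switches on other pancreatic precursors. Sea cucumbers take their protein from sediment, and they stop feeding and shrink the gut during aestivation.

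The 4 isotigs fall into 2 kinds by their match. Isotig13602 (1964 bases), isotig21645 (685 bases) and isotig26752 (443 bases) share 1 best match, a trypsin-like serine protease of Apostichopus japonicus itself, and they are the 3 isotigs of the tables with that match. In the authors' deposited annotation the expectation values of these matches were 5.85e-49, 7.74e-126 and 5.72e-31, in that order, so the 685-base isotig had the strongest match although it is not the longest. Isotig13029 (371 bases) matched the precursor of anionic trypsin-1 of a fish, the rainbow smelt Osmerus mordax, with an expectation value of 1.64e-17. The gene ontology terms were hydrolase activity for isotig13602 and isotig21645, peptidase activity by its identifier alone for isotig26752, and endopeptidase activity for isotig13029. A shared match does not say whether isotigs are alleles, copies or separate pieces of 1 gene. Only uniquely aligned reads were counted, so reads that fitted more than 1 isotig are missing from every value given here. No other isotig had a best match naming trypsin, chymotrypsin or elastase, apart from neurotrypsin and trypsin inhibitors.

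The libraries held 1.02 M uniquely aligned reads for non-aestivation, 0.893 M for deep aestivation and 0.945 M for arousal, where M stands for mega. A single library per stage leaves the replicate spread unknown, so no test was made. Intervals are exact 95% intervals for counting error alone, and PCR copies without molecular identifiers are not independent molecules. The table recorded for the non-aestivation sample carries arousal in its file name, and the table recorded for arousal carries non-aestivation. Values follow the sample labels; which of the names is right was not settled. Of 31 isotigs matching markers of the intestinal lining, 30 were read in each library. They held 1.80%, 0.693% and 5.85% of all reads in stage order, and 1 isotig matching intestinal fatty acid binding protein 2 (isotig19264) made up 90.3%, 46.1% and 93.0% of that. The other 30 lining isotigs held 0.175%, 0.374% and 0.408% of all reads, so that without it deep aestivation stood above non-aestivation. Of their 1787, 3335 and 3855 reads, 434, 1792 and 1580 lay on 1 maltase match (isotig13364). Of the 30 lining isotigs that averaged 1 RPKM or more, 7 were called higher and 2 lower in deep aestivation against non-aestivation. In arousal 9 were called higher and 4 lower than in deep aestivation, and 8 higher and 2 lower than in non-aestivation. The shares of all isotigs called higher and lower were 5.19% and 4.06%, 3.37% and 5.31%, and 3.84% and 5.21%. The call rule was that applied to the trypsin-like isotigs. Markers of gut wall muscle held 1022, 742 and 799 reads. Those of coelomocytes, the cells of the body fluid, held 0.204%, 0.226% and 0.158%, and those of gonad 0.00147%, 0.00314% and 0.00201%. By the names of the best matches, those to vasa, nanos and piwi, used here as gonad markers, numbered 0. Matches to thymosin and macrophage mannose receptor, sought as coelomocyte markers, also numbered 0. The part of these shifts in the trypsin-like values was not tested. In whole intestine, fewer cells of a type and less RNA per cell cannot be told apart.

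Each stage had a different leading trypsin-like transcript. Isotig13602 led in non-aestivation, isotig21645 with isotig26752 in deep aestivation, and isotig13029 in arousal. Levels are in RPKM, which scales reads by isotig length and by the aligned reads of the library and allows isotigs of different length to be compared.

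Isotig13602 had 1220, 7 and 27 reads in non-aestivation, deep aestivation and arousal. Its level was 608 RPKM (574 to 643), 3.99 RPKM (1.61 to 8.23) and 14.6 RPKM (9.59 to 21.2). It was high in non-aestivation and low in both other libraries, and the interval of deep aestivation did not reach that of arousal. By level it stood at rank 171 of 18327 isotigs listed in non-aestivation, 14275 of 18385 deep in aestivation and 7613 of 17651 at arousal.

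Isotig21645 had 6, 1169 and 12 reads in the same stage order. Its level was 8.57 RPKM (3.14 to 18.6) in non-aestivation, 1912 RPKM (1804 to 2024) in deep aestivation and 18.5 RPKM (9.58 to 32.4) in arousal. It was the most abundant of the 4 transcripts at its peak, at rank 31 of all isotigs in deep aestivation. The intervals in non-aestivation and arousal overlapped.

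Isotig26752 had 1, 405 and 4 reads. Its level was 2.21 RPKM (0.0559 to 12.3), 1024 RPKM (927 to 1129) and 9.56 RPKM (2.60 to 24.5). It was high in deep aestivation alone, at rank 86, and its values in the other two libraries overlapped. Isotig21645 and isotig26752 shared their peak in deep aestivation, with an RPKM ratio of the first to the second of 3.88, 1.87 and 1.94 in stage order, the first of these resting on 6 reads against 1.

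Isotig13029, the match to fish anionic trypsin, had 54, 35 and 216 reads. Its level was 142 RPKM (107 to 186), 106 RPKM (73.6 to 147) and 616 RPKM (537 to 704). It was high in arousal, and its intervals in non-aestivation and deep aestivation overlapped. This was the member that varied least, with ranks of 889, 1260 and 161.

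**Figure D1:**
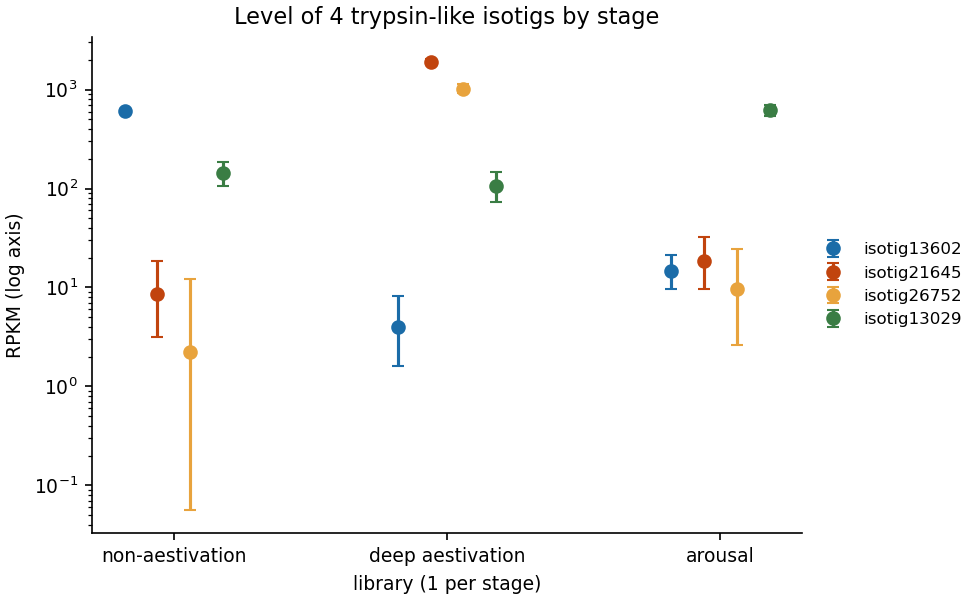
Level of each trypsin-like isotig in RPKM (log axis) in the 3 libraries, with exact 95% Poisson intervals for counting error. Isotig13602 stands highest in non-aestivation (608 RPKM), isotig21645 and isotig26752 in deep aestivation (1912 and 1024 RPKM) and isotig13029 in arousal (616 RPKM).

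Within a library the order of the 4 could be read only in part. In non-aestivation isotig13602 stood above isotig13029, and isotig21645 and isotig26752 lay below both with intervals that overlapped. In deep aestivation the order was isotig21645, isotig26752, isotig13029 and isotig13602, with no overlap between neighbours. In arousal isotig13029 was above the rest, and the intervals of isotig21645, isotig13602 and isotig26752 overlapped, so these 3 could not be ordered at this depth.

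In deep aestivation against non-aestivation the trypsin-like transcripts went in both directions. A fold is the ratio of an isotig's shares of the reads in a pair of libraries. Calls needed a ratio of RPKM + 0.5 of 2-fold or more in either direction and a counting interval, at an error rate of 0.1%, without equality. Such a call tells libraries apart, not conditions. Of the 4, 2 were called higher, 1 lower and 1 neither. Across the 18352 isotigs that averaged 1 RPKM or more, 5.19% were called higher, 4.06% lower and 9.25% in either direction. Isotig21645 was 223-fold higher (102 to 609) and isotig26752 464-fold higher (82.8 to 1.84e+04), the wide interval resting on its single read in non-aestivation. Isotig13602 was 152-fold lower (73.6 to 379). On the log2 scale isotig26752 and isotig21645 stood 4th and 9th from the top of all isotigs and isotig13602 6th from the bottom. Isotig13029 was 1.35-fold lower (0.865 to 2.12), an interval that holds both directions. By scaling on median ratios, 43.0% of all calls were higher in place of 56.1%, and the median log2 ratio of all isotigs, 0.16, moved by -0.12, a shift far smaller than the called changes of the 4.

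Arousal against deep aestivation shares the deep aestivation library with that comparison. Here 1 of the 4 was called higher, 2 lower and 1 neither, where 3.37% of all isotigs were called higher, 5.31% lower and 8.69% in either direction. Isotig21645 was 103-fold lower (58.8 to 200.1) and isotig26752 107-fold lower (41.5 to 395). Isotig13029 was 5.83-fold higher (4.07 to 8.59). Isotig13602 was 3.64-fold higher (1.55 to 9.91) and was called neither, but it was called higher under each of 3 other scalings, which made 2 of the 4 higher. Its reads covered 262 of its 1964 bases in each of these libraries, so fold and call do not speak for the whole isotig. With median ratios 53.4% of all calls were higher, and with upper quartiles 50.5%, in place of 38.8%, and both scalings moved the median log2 ratio of all isotigs, -0.16, by 0.16.

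Arousal against non-aestivation shares a library with each of the other comparisons. Of the 4, 1 was called higher, 1 lower and 2 neither, where 3.84% of all isotigs were called higher, 5.21% lower and 9.05% in either direction. Isotig13029 was 4.33-fold higher (3.20 to 5.95) in arousal, and isotig13602 41.8-fold lower (28.6 to 63.6). Isotig21645 was 2.16-fold higher (0.752 to 7.03) and isotig26752 4.33-fold higher (0.428 to 213), on 12 reads against 6 and on 4 against 1, so no direction could be read at this depth. With the 20 most abundant isotigs left out of the totals, 54.6% of all calls were higher in place of 42.4%. If the file names were right and the labels wrong, isotig13602 would be the arousal transcript and isotig13029 the non-aestivation transcript. That isotig21645 and isotig26752 peaked in deep aestivation holds either way.

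The sum over the 4 hid these exchanges. In stage order it was 1281, 1616 and 259 reads, or 1253 (1185 to 1323), 1810 (1723 to 1901) and 274 (242 to 310) reads per M of aligned reads. By reads, the sum was 1.44-fold higher (1.34 to 1.56) in deep aestivation than in non-aestivation, and in arousal it was 6.60-fold lower (5.79 to 7.56) than in deep aestivation and 4.57-fold lower (3.996 to 5.24) than in non-aestivation. The sum of RPKM, in which a read counts for more on a short isotig, was 761, 3045 and 659 in stage order. By that measure deep aestivation was 4.0-fold higher than non-aestivation, and arousal was 4.62-fold lower than deep aestivation but 1.15-fold lower than non-aestivation. The difference between non-aestivation and arousal was large in reads and small per length: the 1964-base isotig13602 held most of the sum in non-aestivation and the 371-base isotig13029 in arousal.

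The leading transcript held a larger part of the family in non-aestivation and arousal than in deep aestivation. In stage order isotig13602 held 95.2% (93.9 to 96.3), 0.433% (0.174 to 0.890) and 10.4% (6.98 to 14.8) of the family's reads. Isotig21645 held 0.468%, 72.3% and 4.63%, and isotig26752 0.0781%, 25.1% and 1.54%. Isotig13029 held 4.22%, 2.17% and 83.4%. Per length the leading shares were 79.9% for isotig13602 in non-aestivation, 62.8% and 33.6% for isotig21645 and isotig26752 in deep aestivation, and 93.5% for isotig13029 in arousal. The leading transcript of each stage was the same by both measures.

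**Figure D2:**
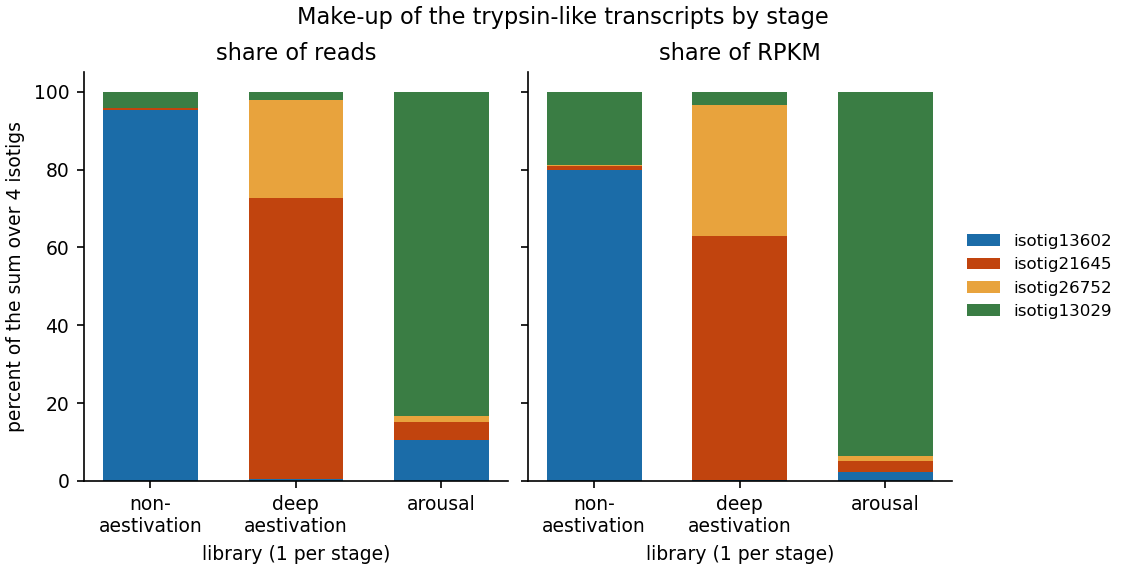
Share of each isotig in the sum over the 4 trypsin-like isotigs, in percent, by reads (left) and by RPKM (right), in the 3 libraries. Isotig13602 fills 95.2% of the reads in non-aestivation, isotig21645 and isotig26752 fill 72.3% and 25.1% in deep aestivation, and isotig13029 fills 83.4% in arousal.

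Coverage, the percent of an isotig's length that is covered by reads, shows how these counts were spread. Isotigs with a single read were covered over a median of 49 bases in each library, which gives the aligned length of a read. Each leading transcript was covered nearly from end to end in its own stage, with 97.3% for isotig13602 in non-aestivation, 98.7% and 98.0% for isotig21645 and isotig26752 in deep aestivation, and 98.1% for isotig13029 in arousal. All isotigs of like read density had median coverages of 96.2%, 96.65%, 96.66% and 96.4% in the same order, so such coverage was usual at these densities. Isotig13029 was also covered over 93.5% in non-aestivation and 86.8% in deep aestivation, where these medians were 86.7% and 88.7%.

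Isotig13602 stood out in arousal. Its 7 reads in deep aestivation and its 27 reads in arousal covered the same extent, 13.3% of the isotig or 262 of 1964 bases. The 27 reads lay on average 5.05 deep over the covered bases, and the 7 reads 1.31 deep. All 3276 isotigs of the arousal library at 10 to 20 reads per kb, the density of isotig13602 there, had a median coverage of 43.1%, with the 10th and 90th percentiles at 27.5% and 56.0%. In deep aestivation the 2422 isotigs at 2.5 to 5 reads per kb had a median of 14.9% (9.12% to 21.0%), which isotig13602 lay near. Most of this transcript was not covered in arousal, and its 14.6 RPKM there came from 262 bases. Whether the covered bases are the same in both libraries cannot be read from these values.

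The other members showed no such concentration. Isotig21645 was covered over 37.1% by 6 reads in non-aestivation and over 41.6% by 12 reads in arousal, and isotig26752 over 11.1% by 1 read and 42.0% by 4 reads. The arousal isotigs at 5 to 10 reads per kb, the density of isotig26752 there, had a median coverage of 26.5%.

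**Figure D3:**
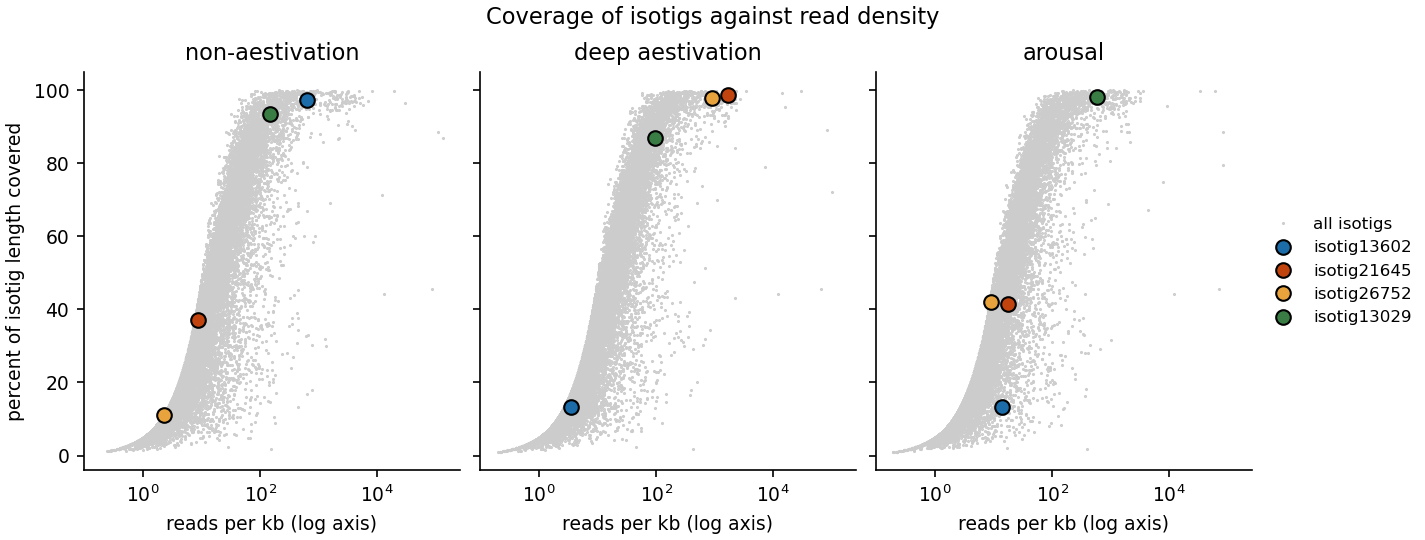
Percent of each isotig's length covered by reads against its reads per kb (log axis) in the 3 libraries, with all isotigs in grey and the 4 trypsin-like isotigs in colour. In arousal isotig13602 lies at 13.3%, under the 10th percentile (27.5%) of the 3276 isotigs in its density range.

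Other transcripts with like patterns were found by distance between the log2(RPKM + 0.5) values of the 3 libraries, each centred on its mean, among 2358 isotigs with a named match, at least 50 reads and a mean of at least 5 RPKM. With 3 points such likeness is coarse, and distances to isotigs with 0 reads in a library depend on the added 0.5. Each of isotig21645 and isotig26752 had the other as its nearest (0.68). For isotig21645 next came a match to proprotein convertase subtilisin/kexin type 9 (isotig07647, distance 0.76), listed at 0, 92 and 0 reads in stage order, and a match to a sea urchin protein named by a locus number alone (isotig20607, 0.83), with 2, 196 and 3 reads. For isotig26752 they were a match to preamylase 1, a starch-digesting enzyme (isotig14872, 1.10), with 0, 98 and 2 reads, and another match to the same sea urchin protein (isotig21801, 1.32), with 1, 140 and 4 reads. The transcripts nearest to isotig13602 were the actin-binding MICAL-3 (isotig01569, 1.27), with 68, 0 and 0 reads, an acetylcholine receptor subunit (isotig05318, 1.86), with 72, 2 and 2 reads, and guanylate cyclase (isotig13105, 2.24), with 80, 3 and 2 reads. Isotig13029 lay closest to metabolic enzymes. These were betaine homocysteine methyltransferase, which remakes methionine (isotig13777, 0.17), with 114, 63 and 401 reads, ATP citrate lyase, which supplies acetyl-CoA for lipid synthesis (isotig26955, 0.28), with 12, 10 and 50 reads, and phosphoserine aminotransferase of serine synthesis (isotig13783, 0.30), with 51, 37 and 173 reads.

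Other proteases of the trypsin fold, further peptidases, some of which complete protein digestion, and inhibitors were read beside the 4. Another 15 isotigs were placed in the trypsin-fold S1 family by their match alone, and their role was not tested. Of these, 1 was called higher and 2 were called lower in deep aestivation, compared with non-aestivation, beside 5.19% and 4.06% of all isotigs. A matriptase-like isotig (isotig25725, a match to a membrane serine protease) had 134, 4 and 0 reads in stage order and was 29.3-fold lower (11.2 to 109) in deep aestivation and at least 41.3-fold lower in arousal than in non-aestivation, where the bound sets 0 reads to 3. It was thus high in the same library as isotig13602. The others were complement factor B, an immune protease (isotig00440, 41 and 9 reads, 3.98-fold lower, 1.90 to 9.31), and complement factor B-2 (isotig28836, 0 and 16 reads, at least 6.11-fold higher), the latter named after its values were seen. Several isotigs of the list match the same complement factor, so reads shared between them are missing and their values are uncertain. The neurotrypsin match, the most read of the list (isotig14143), had 82, 61 and 54 reads and was called in no comparison. In arousal against deep aestivation 1 of the 15 was called lower, another complement factor B isotig named after its values were seen (isotig25588, 27 and 7 reads, 4.08-fold, 1.73 to 11.1), and against non-aestivation 1, the matriptase-like isotig. The shares of all isotigs called lower there were 5.31% and 5.21%. The list's median log2 ratios were -0.23, -0.25 and -0.48 in the order of the comparisons above, or -0.12, 0.00 and 0.00 with isotigs at 0 reads set to their bound, beside 0.16, -0.16 and -0.04 for all isotigs. A match to enteropeptidase (isotig21549) had 0, 0 and 2 reads.

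Carboxypeptidases include enzymes that trim the peptides that trypsin leaves. The list was matched by name, and whether its 6 isotigs act in digestion was not tested. Of these 6, 1 was called higher in deep aestivation than in non-aestivation. In arousal 1 was called lower than in deep aestivation, and 1 higher than in non-aestivation. The shares of all isotigs called in those directions were 5.19%, 5.31% and 3.84%. The first and second of these calls were a zinc carboxypeptidase match (isotig14682, named after its values were seen), with 4, 66 and 0 reads, 18.9-fold higher (7.04 to 71.4) and then at least 23.3-fold lower. Its peak lay in the same library as those of isotig21645 and isotig26752. Carboxypeptidase A (isotig13961) had 247, 351 and 604 reads and was 2.65-fold higher (2.28 to 3.08) in arousal than in non-aestivation. The next by reads were prolylcarboxypeptidase (isotig17274), with 44, 47 and 72 reads, and a retinoid-inducible serine carboxypeptidase match (isotig17820), with 33, 23 and 34, both called in no comparison. The medians were 0.49, 0.60 and 1.11, or 0.45, 0.60 and 1.08 at the bound.

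Aminopeptidases and dipeptidyl peptidases, which act mostly on the other end of peptides, were listed with related enzymes. This list had calls in every comparison. The list mixes membrane enzymes with others, among them a match named as soluble. Of 24 in the list, 20 averaged 1 RPKM or more. Of these, 3 were called higher and 1 lower in deep aestivation against non-aestivation. In arousal 8 were called higher and 1 lower than in deep aestivation, and 10 higher and 1 lower than in non-aestivation. Of all isotigs, 5.19% and 4.06%, 3.37% and 5.31%, and 3.84% and 5.21% were called higher and lower in these comparisons. Their medians were -0.05, 0.98 and 1.17, the last 1.02 at the bound. Glutamyl aminopeptidase (isotig13445) had 457, 338 and 1356 reads and was 3.79-fold higher (3.36 to 4.28) in arousal than in deep aestivation. Angiotensin-converting enzyme (isotig07116), among the related enzymes, had 288, 236 and 986 reads and was 3.95-fold higher (3.42 to 4.57) there. A membrane alanine aminopeptidase match (isotig16462), with 196, 625 and 730 reads, was 3.65-fold higher (3.11 to 4.31) in deep aestivation than in non-aestivation. Another isotig with the same match, named after its values were seen (isotig15581), had 324, 93 and 581 reads and was 3.04-fold lower (2.41 to 3.87) there.

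Of 7 inhibitors of serine proteases, the antistasin-like isotig23198 was the single call in each comparison, where 9.25%, 8.69% and 9.05% of all isotigs were called in either direction. It had 286, 91 and 2149 reads, 2.74-fold lower (2.16 to 3.51) in deep aestivation against non-aestivation and 22.3-fold higher (18.1 to 27.8) in arousal than in deep aestivation, with its highest library, arousal, the same as that of isotig13029. In leeches antistasin blocks factor Xa, a trypsin-fold protease of blood clotting. A Kazal-type inhibitor (isotig18647), of a family that blocks trypsin in the vertebrate pancreas, had 1402, 1355 and 737 reads and was 1.95-fold lower (1.78 to 2.13) in arousal than in deep aestivation, below the 2-fold limit. An alpha-2-macroglobulin match (isotig15279), of a family that traps proteases of many classes, had 121, 204 and 133 reads. The medians were 0.15, -0.47 and 0.25, or 0.00, -0.47 and 0.00 at the bound.

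**Figure D4:**
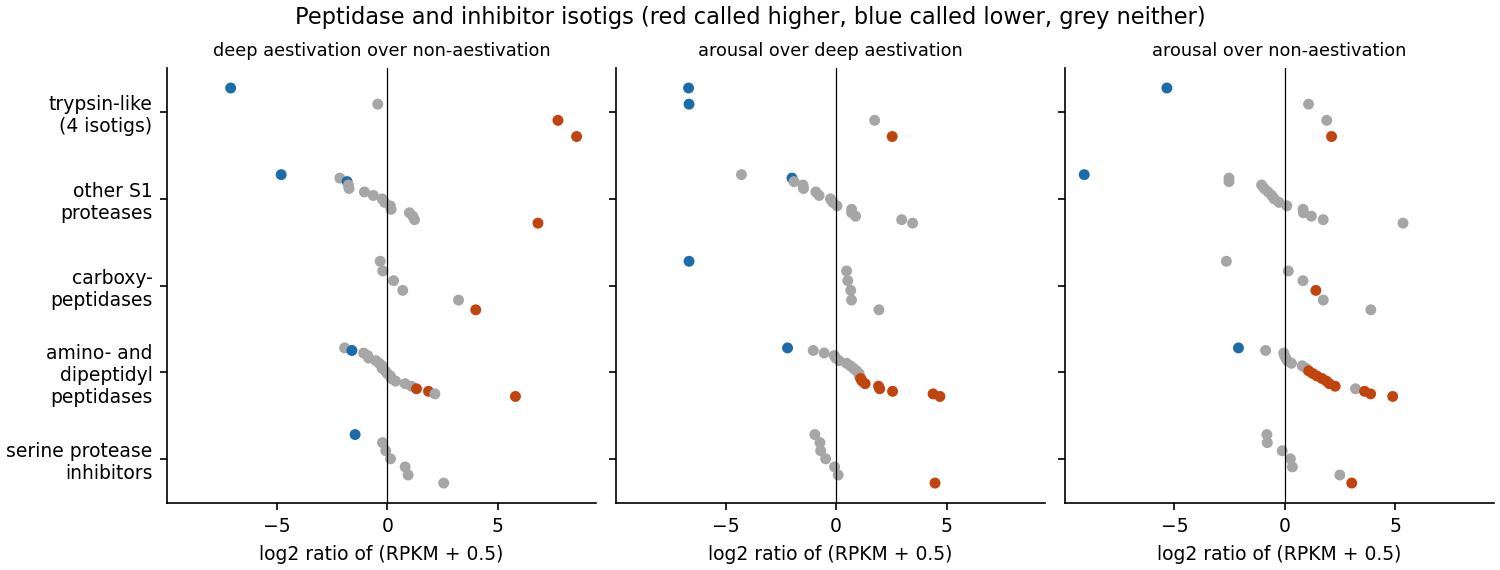
Log2 ratio of RPKM + 0.5 of each isotig, by group, in the 3 comparisons of libraries, with red for isotigs called higher, blue for lower and grey for neither; points with 0 reads in a library depend on the added 0.5. The trypsin-like group lies at both ends in deep aestivation over non-aestivation, from -7.08 for isotig13602 to 8.56 for isotig26752.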

How the data were processed

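The deposited tables give, per isotig, the count of uniquely aligned reads, the length in bases, the coverage in percent of the length and the RPKM, as the authors' column description defines them. CASAVA 1.5 appears in the submitters' processing notes; aligner and assembler were not given in the sources used here. In the labels' protocols mRNA was taken with oligo(dT) beads, broken to about 200 bp, primed with random hexamers and amplified by PCR. Isotigs absent from a table were taken as 0 reads. RPKM recomputed from the deposited counts differed by a relative 4.96e-15 at most. Folds are ratios of read shares with exact conditional binomial (Clopper-Pearson) intervals, levels have exact Poisson intervals, and log2 ratios use a pseudocount of 0.5 RPKM. The floor for 0 reads was 3 reads per library. Calls used the 18352 isotigs that averaged 1 RPKM or more. The call rule was also run on simulated counts with counting error alone, which cannot show how it fares with spread between libraries. Python 3.11.15, numpy 2.4.6, scipy 1.17.1, pandas 2.3.3 and matplotlib 3.10.9 were used. Alternatives were other scalings, pseudocounts, the filter, a 4-fold limit, and sums leaving out each isotig or adding RPKM. The members and lists were chosen with earlier results of these data known, and list patterns were corrected by reading the matched descriptions. The text names the 4 members, the 3 isotigs of each peptidase, inhibitor and uptake list with most reads, and the 3 nearest in pattern to each member. Read windows for coverage were chosen after seeing the data. Marker lists for intestinal lining, gut wall muscle, coelomocytes and gonad are given as sums, with calls and the most read isotigs added for the lining.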

Additional observations from a re-analysis of the deposited data

How the results depend on the processing

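Of 60 values for single trypsin-like isotigs under other scalings and pseudocounts, 60 kept their direction and stayed within the counting interval. A scaling moves all isotigs by 1 factor, small beside most of these intervals, so this count says little. For isotig26752 in deep aestivation over non-aestivation the other scalings gave 418 to 489, within 82.8 to 1.84e+04. The call of isotig13602 in arousal over deep aestivation did change, from neither to higher, under each other scaling. The family sum has narrower intervals (1.34 to 1.56 in deep aestivation over non-aestivation) and did not stay within them in every setting. Deep aestivation over non-aestivation was 1.44-fold, and became 1.30 by median ratios, 30.2 without isotig13602, 0.401 and so reversed without isotig21645, 1.08 without isotig26752, and 4.0 as a sum of RPKM. Arousal over deep aestivation was 0.151, and became 0.174 by median ratios, 0.522 without isotig21645, 0.199 without isotig26752, 0.0257 without isotig13029, and 0.216 as a sum of RPKM. Arousal over non-aestivation was 0.219, and became 4.12 and so reversed without isotig13602, 0.0379 without isotig13029, and 0.866 as a sum of RPKM. The values without 1 isotig differ by construction, the sum then lacking its reads; the scaling by median ratios moves all isotigs by 1 factor. With a 4-fold limit, the isotigs called higher and lower numbered 390 and 269 in place of 952 and 745 in deep aestivation over non-aestivation, 271 and 518 in place of 619 and 975 in arousal over deep aestivation, and 282 and 429 in place of 704 and 956 in arousal over non-aestivation. The 24 recomputed counts over the peptidase, inhibitor and uptake lists stayed within 1.5 times. No paired analysis was possible because each stage has 1 library. Members with 1 to 12 reads set the limit of precision.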

Other observations

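Peptidases of the lysosome digest protein inside cells. Of 12 cathepsin and legumain isotigs, 1 was called higher and 2 lower in deep aestivation against non-aestivation, 3 higher and 0 lower in arousal than in deep aestivation, and 4 higher and 0 lower in arousal than in non-aestivation, with median log2 ratios of 0.15, 0.64 and 0.69. Of all isotigs, 5.19% and 4.06%, 3.37% and 5.31%, and 3.84% and 5.21% were called higher and lower in these comparisons, with medians of 0.16, -0.16 and -0.04. Legumain, a cysteine protease that cuts after asparagine, had 1081, 1151 and 2110 reads for isotig15138 and 365, 350 and 977 for isotig24749, in the order non-aestivation, deep aestivation and arousal. Isotig15138 was 2.11-fold higher (1.96 to 2.28) and isotig24749 2.90-fold higher (2.57 to 3.28) in arousal than in non-aestivation. Cathepsin L2 (isotig13709) had 1106, 387 and 2272 reads. Named after their values were seen, cathepsin C (isotig07206) had 80, 28 and 78 reads and a cathepsin D isotig (isotig06266) had 1, 17 and 14. Most cathepsin D reads lay elsewhere. Another isotig with the same match (isotig06265) had 172, 160 and 276 reads, and a cathepsin D-like match (isotig06280) had 150, 221 and 201. Both were called in no comparison.

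Carriers that take up the products of protein digestion were read at low levels. The 8 peptide and amino acid carrier isotigs held 60, 91 and 185 reads together. In deep aestivation against non-aestivation 1 was called higher, the amino acid carrier LAT-1 match (isotig16381, 3 and 18 reads, 6.87-fold, 2.01 to 36.4). In arousal 1 was called higher than in deep aestivation and 2 higher than in non-aestivation. The shares of all isotigs called higher were 5.19%, 3.37% and 3.84%. Of these carriers, isotig20914 had 26, 24 and 105 reads. It matched member 9 of solute carrier family 6, which carries glycine, and was 4.13-fold higher (2.63 to 6.74) in arousal than in deep aestivation. With the same match, isotig23312 had 6, 20 and 24 reads, isotig20053 had 7, 2 and 17, and isotig14897 had 6, 5 and 14. Most of the list's reads lay on these matches. The rise of the sum in arousal did not extend to the match to the peptide carrier PepT1 (isotig16131). It had 8, 17 and 4 reads, 4.50-fold lower (1.47 to 18.4) in arousal than in deep aestivation, and was called in no comparison. Isotig20053, isotig14897 and isotig16131 were picked with their values known. The median log2 ratios of the 8 were 0.65, 0.74 and 1.51, or 0.04, 0.74 and 1.29 with isotigs at 0 reads set to their bound.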
